A study of Mus musculus with 31 samples.

Results

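The 34 genes described here are those of glycolysis and of the transcriptional response to hypoxia-inducible factor 1 (HIF1) in mouse macrophages. They were taken from a fixed list of gene symbols matched through Ensembl identifiers, and a listed gene without counts would have been dropped. All 34 had counts in both deposited tables, of 35275 gene identifiers in experiment 1 and 54532 in experiment 2, and all 34 were among the genes tested (12662 and 13313). The list holds the factor's own alpha subunit (Hif1a), 2 glucose transporters (Slc2a1, Slc2a3), the lactate exporter Slc16a3, 17 glycolytic enzymes with lactate dehydrogenase A (Ldha) among them, 2 fructose-2,6-bisphosphate enzymes (Pfkfb3, Pfkfb4), 2 pyruvate dehydrogenase kinases (Pdk1, Pdk3), 2 HIF prolyl hydroxylases (Egln1, Egln3) and 7 other HIF target genes (Vegfa, Bnip3, Ndrg1, P4ha1, P4ha2, Ankrd37, Ero1l).

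Bone marrow of C57BL/6J mice (males, 6 to 12 weeks old) was cultured into macrophages with L-929 conditioned medium and then moved to a serum-free macrophage medium. They were kept overnight in vehicle, Dex at 1 µM, dBRD9 at 250 nM, iBRD9 at 3 or 10 µM, or a combination, and then given LPS at 100 ng/ml for 3 hours. Dex is the glucocorticoid dexamethasone, LPS is bacterial lipopolysaccharide, iBRD9 blocks the bromodomain of the chromatin protein BRD9, and dBRD9 is a degrader of BRD9. The sources used here do not give the iBRD9 dose of each library. Experiment 1 had 7 groups of 3 libraries: vehicle, LPS alone, and LPS after Dex, after iBRD9, after dBRD9, after Dex with iBRD9 (Dex + iBRD9 + LPS) or after Dex with dBRD9 (Dex + dBRD9 + LPS). Experiment 2 had 5 groups of 2 libraries, a vehicle group and 4 groups that received IFNγ + LPS: without a compound, with Dex, with dBRD9, or with the pair (Dex + dBRD9 + IFNγ + LPS). IFNγ is interferon gamma, and the sources used here give neither its dose nor its timing. No group received a compound without LPS, and the labels name no genetic alteration. Nothing in the labels says that the libraries of a group came from separate mice or cultures, so a p-value here measures the spread between these libraries, which may be technical.

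Glycolysis splits glucose into pyruvate, and lactate dehydrogenase turns pyruvate into lactate, which leaves the cell through Slc16a3. HIF1 pairs an oxygen-labile alpha subunit with a stable partner, and in oxygen the prolyl hydroxylases of the Egln family mark the alpha subunit for destruction. Activated macrophages are known for a shift toward glycolysis, and HIF1 drives many glycolytic genes there also when oxygen is present.

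Depth was 19.3 to 29.9 M counts per library in experiment 1 and 14.5 to 17.9 M in experiment 2, where M stands for mega. Levels are counts per M of TMM-scaled library totals (CPM), TMM being a scaling that assumes that most genes do not change. The biological coefficient of variation that libraries of a group shared was 6.79% (experiment 1) and 10.6% (experiment 2). In experiment 1, replicate 1 of Dex + LPS and replicate 1 of Dex + dBRD9 + LPS stood apart from the other libraries of their groups: across 7593 genes, their deviation from the group mean went with exon length at a rank correlation of -0.68 and -0.515. In experiment 2, the 2 vehicle libraries (0.633 in size) and the 2 Dex + IFNγ + LPS libraries (0.571) deviated from each other in the same way, and with 2 libraries neither can be called the odd one. The summed level of 8 macrophage markers was 12700 to 27300 CPM in experiment 1 and 12600 to 14500 CPM in experiment 2, whereas T and NK cell markers summed to at most 0.477 CPM. Stromal cell markers summed to at most 0.385 CPM in experiment 1 and to 32.6 to 66.4 CPM in experiment 2, and their part in the results was not tested. Brd9 itself had a mean of 43.0 CPM in LPS, 25.2 in iBRD9 + LPS and 35.4 in dBRD9 + LPS. As a check of the Dex label, Tsc22d3, a classic glucocorticoid-induced gene, was 6.33 higher in Dex + LPS than in LPS on the log2 scale.

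HIF1 binds DNA at a short core, ACGTG or GCGTG. The bases before the transcription start are shown for the members that headed the called changes at either end, by log2 fold change among genes of at least 10 CPM, in the comparisons of LPS, Dex, iBRD9 or IFNγ + LPS, so that a reader can see how often this core stands there. The windows are RefSeq promoters of build GRCm38.p6 (mm10), which matched 31 of the 34 genes, and the 250 bases before the start are printed 5′ to 3′ on the gene's strand, with the core letters of either strand in capitals. They lie at chr4:119108495-119108744 (plus strand, Slc2a1), chr6:82774455-82774704 (minus, Hk2), chr2:11553930-11554179 (minus, Pfkfb3), chr11:78322823-78323072 (plus, Aldoc), chr11:54100674-54100923 (plus, P4ha2) and chr17:46032378-46032627 (minus, Vegfa).

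Slc2a1: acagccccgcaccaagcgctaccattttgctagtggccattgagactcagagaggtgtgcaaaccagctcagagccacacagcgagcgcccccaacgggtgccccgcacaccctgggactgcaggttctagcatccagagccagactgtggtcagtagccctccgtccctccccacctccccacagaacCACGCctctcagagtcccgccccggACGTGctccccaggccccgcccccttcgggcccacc
Hk2: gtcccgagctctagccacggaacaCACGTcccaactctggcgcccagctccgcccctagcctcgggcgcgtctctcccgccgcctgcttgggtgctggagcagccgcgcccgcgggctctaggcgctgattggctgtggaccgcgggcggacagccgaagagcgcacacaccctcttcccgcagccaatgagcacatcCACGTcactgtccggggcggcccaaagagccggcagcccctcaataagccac
Pfkfb3: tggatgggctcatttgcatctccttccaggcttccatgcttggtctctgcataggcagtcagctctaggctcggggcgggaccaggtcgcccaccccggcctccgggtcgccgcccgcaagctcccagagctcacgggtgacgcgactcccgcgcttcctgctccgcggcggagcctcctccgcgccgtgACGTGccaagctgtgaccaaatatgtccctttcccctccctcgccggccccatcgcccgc
Aldoc: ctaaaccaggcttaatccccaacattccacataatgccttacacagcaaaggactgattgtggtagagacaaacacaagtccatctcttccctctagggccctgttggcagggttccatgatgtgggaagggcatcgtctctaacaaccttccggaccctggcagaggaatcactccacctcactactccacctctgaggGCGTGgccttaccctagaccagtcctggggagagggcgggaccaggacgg
P4ha2: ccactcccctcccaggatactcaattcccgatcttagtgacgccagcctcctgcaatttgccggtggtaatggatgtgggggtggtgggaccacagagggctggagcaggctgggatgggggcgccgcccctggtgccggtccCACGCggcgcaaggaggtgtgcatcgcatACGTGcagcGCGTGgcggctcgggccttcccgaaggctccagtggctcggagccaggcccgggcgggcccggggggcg
Vegfa: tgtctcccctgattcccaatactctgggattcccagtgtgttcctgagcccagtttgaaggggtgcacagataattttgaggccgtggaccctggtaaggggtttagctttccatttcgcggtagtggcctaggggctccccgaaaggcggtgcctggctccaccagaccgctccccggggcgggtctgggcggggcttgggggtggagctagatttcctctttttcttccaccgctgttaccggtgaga

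The printed bases held 2 cores for Slc2a1, 2 for Hk2, 1 for Pfkfb3, 1 for Aldoc and 3 for P4ha2, with overlapping matches counted as 1, and those of Vegfa held 0. In the full window of 300 bases, which adds 50 bases after the start, 24 of the 31 matched genes (77.4%) held at least 1 core, against 43.8% of all 32851 RefSeq windows of that length. At least 2 cores stood in 19 of the 31 (61.3%), against 17.3% of all windows. Such a match describes letters only, and because the list was chosen to hold HIF1 targets, the higher share does not test HIF1 binding. All windows came from 27025 genes, some with several windows, whereas each member was counted in the window nearest its annotated start. Slc2a3, Ndrg1 and Ero1l were not matched.

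Per kilobase of exon, the most abundant of the 34 transcripts in LPS were Aldoa (507 CPM per kb), Pkm (463), Gapdh (408), Pgk1 (298) and Ldha (180.2), all enzymes of the pay-off and cleavage steps or of lactate formation. The least abundant were Slc2a3 (0.305 CPM per kb) and Ankrd37 (0.188). Summed over the 17 enzymes, the level was 8761 to 8942 CPM in vehicle, 9553 to 9811 in LPS, 6996 to 8505 in Dex + LPS, 9110 to 9276 in iBRD9 + LPS, 9405 to 10070 in dBRD9 + LPS, 6231 to 6755 in Dex + iBRD9 + LPS and 7163 to 7350 in Dex + dBRD9 + LPS. As a share of all counts the same sum was 1.13 to 1.14% in vehicle and 0.859 to 0.875% in LPS, so the direction of the LPS difference in the sum depended on the scaling. In Dex + LPS the share was 0.661 to 0.817% and in Dex + iBRD9 + LPS 0.635 to 0.671%, so the Dex groups lay under LPS on both scales. In iBRD9 + LPS the share was 0.898 to 0.908%, over every LPS library, whereas the CPM sum lay under every LPS library. The direction of the iBRD9 difference in the sum thus depended on the scaling too. In experiment 2 the sum was 5795 to 6764 CPM in vehicle, 9070 to 9140 in IFNγ + LPS and 7264 to 7350 in Dex + IFNγ + LPS. As a share of counts it was 0.841 to 0.927%, 0.798 to 0.839% and 0.691 to 0.692%, so here too the direction of the difference from vehicle depended on the scaling, while Dex + IFNγ + LPS lay under IFNγ + LPS on both.

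LPS moved members both ways. At an adjusted p under 0.05 by edgeR's quasi-likelihood test over all genes tested (hereafter, called), 14 of the 34 were higher and 9 lower in LPS than in vehicle, against 36.1% and 39.3% of all genes, so members were called at a share near that of genes in general. The median log2 fold change was 0.124 over the members and -0.0484 over all genes. Higher were Hif1a, the glucose transporter Slc2a1, the lactate exporter Slc16a3, hexokinase 2 (Hk2), both phosphofructokinases Pfkl and Pfkp, and Pfkfb3, which makes the phosphofructokinase activator fructose 2,6-bisphosphate. Lower were Vegfa, Pfkfb4, which encodes an isozyme of Pfkfb3, Pdk1 and the muscle-type phosphofructokinase Pfkm.

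Hif1a (12:73901375-73947530, plus strand, ENSMUSG00000021109) had 51.5, 48.3 and 51.5 CPM in the vehicle libraries and 155, 160.3 and 159.7 CPM in LPS. The groups did not overlap, and the rise was 3.14-fold (log2 1.65, SE 0.0592, edgeR adjusted p = 3.5e-17). Such separation was common, since 81.5% of all genes tested showed no overlap between vehicle and LPS. Slc2a1, the widely expressed transporter GLUT1, had 74.8, 74.0 and 72.5 CPM in vehicle and 263, 267 and 256 CPM in LPS. Every LPS library stood over every vehicle library, a 3.55-fold rise (log2 1.83, SE 0.0542, adjusted p = 9.64e-19). Pfkfb3 had 24.7, 24.1 and 22.6 CPM in vehicle and 81.3, 72.3 and 64.5 CPM in LPS, a rise of 1.61 on the log2 scale (SE 0.0999, adjusted p = 1.09e-12). Ero1l, which oxidizes partner proteins during disulfide formation in the endoplasmic reticulum, had 32.2, 33.9 and 33.6 CPM in vehicle and 82.7, 82.4 and 83.8 CPM in LPS (log2 1.32, SE 0.0769, adjusted p = 3.48e-13).

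Among the genes that fell, Vegfa, the vascular growth factor, had 39.9, 38.5 and 36.9 CPM in vehicle and 4.32, 4.34 and 3.88 CPM in LPS. It was 9.15-fold lower, the largest fall among the 34 genes in this comparison (log2 -3.19, SE 0.127, adjusted p = 2.59e-16). Pfkfb4 had 63.6, 59.98 and 63.2 CPM in vehicle and 21.9, 24.1 and 23.9 CPM in LPS (log2 -1.42, SE 0.0804, adjusted p = 2.12e-13). So the 2 fructose-2,6-bisphosphate enzymes moved in opposite directions. Pdk1, a kinase that holds pyruvate dehydrogenase inactive, had 100.7, 106 and 99.8 CPM in vehicle and 45.6, 46.4 and 49.7 CPM in LPS (log2 -1.11, adjusted p = 3.79e-14). Pfkm had 15.5, 14.3 and 13.9 CPM in vehicle and 8.003, 8.63 and 8.09 CPM in LPS (log2 -0.82, adjusted p = 4.48e-08).

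Of the other called members, Pfkl (2.35-fold) and Pfkp (2.21-fold) rose, as did Slc16a3 (log2 0.88), the collagen prolyl hydroxylase subunit P4ha1 (0.87) and Hk2 (0.63). The abundant enzymes of the middle and lower pathway moved little: Pgk1 was called at 0.48, Gapdh at 0.30 and Eno1 at 0.20 on the log2 scale, and Aldoa (0.13), Ldha (0.12), Pkm (-0.08) and Tpi1 (-0.10) were not called. With libraries scaled by their totals alone, all genes shifted down by a median of 0.514, and calls that were higher went from 47.9% to 23% of all calls. On that scale 8 members were called higher and 22 lower, and the sign of Pgk1 (-0.04), Gapdh (-0.21), Eno1 (-0.32) and Eno2 (-0.08) turned. Hif1a, Slc2a1, Pfkfb3, Ero1l, Pfkl, Pfkp, Slc16a3 and P4ha1 were called higher on both scales, whereas Hk2 (0.11) and Egln3 (0.52) were no longer called by library totals. Markers of other cells moved with LPS: 8 neutrophil markers summed to 10.8 to 13.2 CPM in vehicle and 17 to 24.1 CPM in LPS (4 of 5 tested called higher), dendritic cell markers to 0.748 to 1.13 and 6.87 to 7.8 CPM (2 of 3 higher), and B cell markers to 49.8 to 53.3 and 20.2 to 21.6 CPM (1 of 2 lower). Their part in the results on LPS was not tested. The call of Egln1, lower by 0.15 in the full data, was lost without replicate 2 of vehicle (log2 -0.11, adjusted p = 0.0696). Pfkp shares 748 exon bases with Pitrm1, and Ankrd37 shares 57 with the opposite-strand gene Ufsp2; since the sources used here do not give the strand setting of the counting, reads of such pairs may be mixed.

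**Figure D1:**
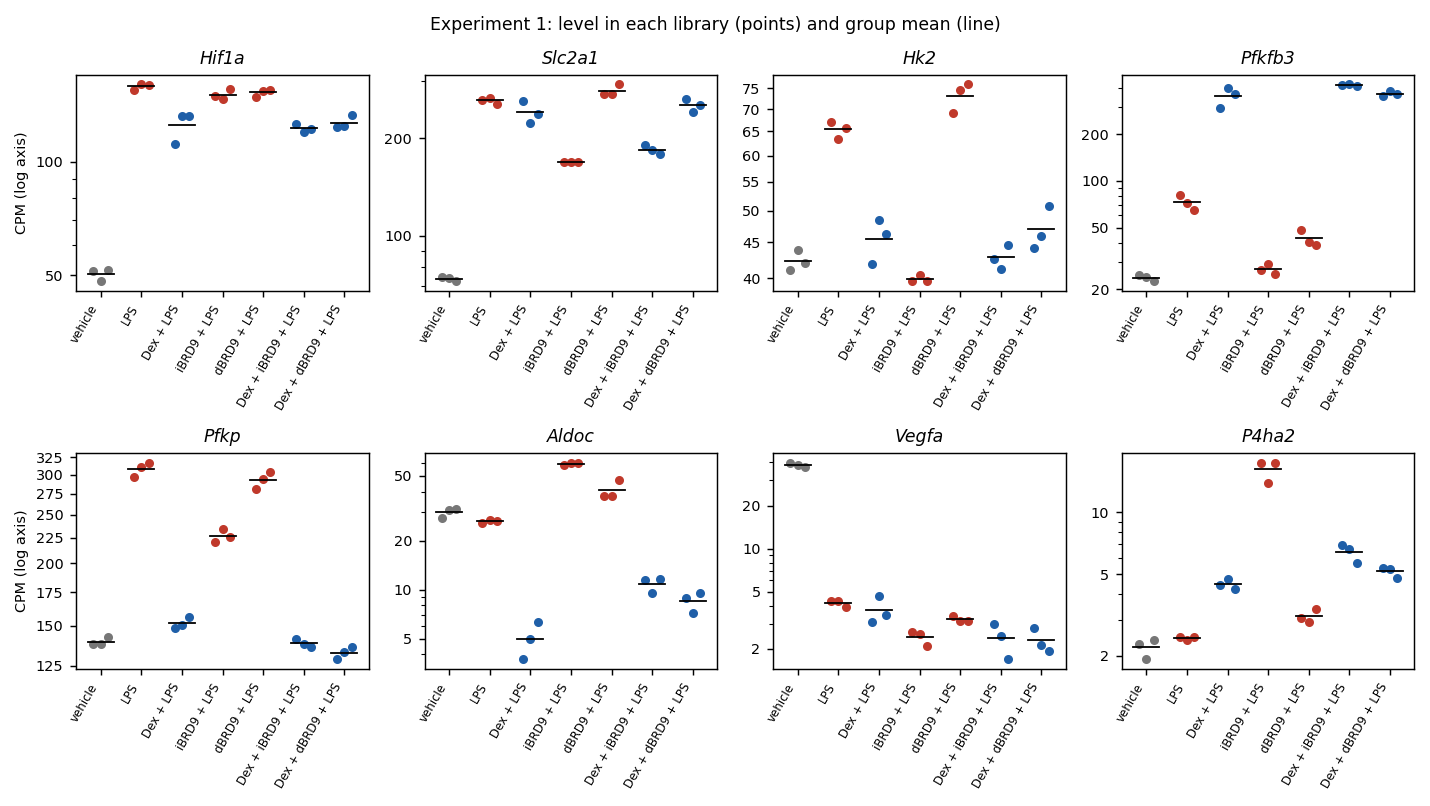
Level of 8 of the genes in each of the 21 libraries of experiment 1, in CPM on a log axis; points are libraries, black bars are group means, grey is vehicle, red is without Dex and blue is with Dex. Pfkfb3 lies between 294 and 420 CPM in every library that received Dex and at or under 81.3 CPM in all others, and P4ha2 exceeds 13 CPM in the iBRD9 + LPS libraries.

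Dex under LPS divided the pathway. Called higher in Dex + LPS than in LPS were 10 of the 34 members and called lower were 15, against 27.9% and 27.5% of all genes, with a median log2 fold change of -0.0893 (all genes 0.00653). Pfkfb3 rose 4.82-fold, with Bnip3, Pdk3 and Pfkl also higher. Aldolase C (Aldoc) fell 5.26-fold, and Pfkp, Hk3 and Pkm fell as well. Most enzymes after phosphofructokinase were lower: Tpi1 (log2 -0.38), Gapdh (-0.50), Pgk1 (-0.18), Pgam1 (-0.34) and Eno1 (-0.35), whereas Gpi1 (0.27) and Eno2 (0.39) were higher and Aldoa was not called.

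The Pfkfb3 level was 81.3, 72.3 and 64.5 CPM in LPS and 294, 397 and 362 CPM in Dex + LPS, with no overlap (log2 2.27, SE 0.096, adjusted p = 4.12e-15). Bnip3, a mitochondrial protein of the mitophagy pathway, had 19.5, 17.8 and 16.5 CPM in LPS and 37.3, 34.9 and 32.3 CPM in Dex + LPS (log2 0.96, SE 0.0774, adjusted p = 3.72e-10). Pfkl, the liver-type phosphofructokinase, had 75.8, 74.9 and 73.1 CPM in LPS and 138, 125 and 119 CPM with Dex (log2 0.77, SE 0.055, adjusted p = 3.81e-11). These 3 genes were higher in each Dex + LPS library than in any LPS library. Of all genes, 55.7% showed no overlap between these groups. Pdk3 had 7.82, 7.43 and 6.69 CPM in LPS and 13.96, 12.2 and 11.4 CPM in Dex + LPS (log2 0.78, SE 0.0997, adjusted p = 6.63e-07).

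Aldoc had 25.7, 26.7 and 26.3 CPM in LPS and 3.73, 4.95 and 6.31 CPM in Dex + LPS (log2 -2.40, SE 0.134, adjusted p = 6.08e-13). Pfkp, the platelet-type phosphofructokinase, had 297, 311 and 317 CPM in LPS and 148, 150.5 and 156 CPM in Dex + LPS (log2 -1.02, SE 0.0452, adjusted p = 8.89e-15). Thus Pfkl and Pfkp, both higher after LPS, moved apart with Dex. Hk3, the hexokinase typical of myeloid cells, had 525, 519 and 540 CPM in LPS and 272, 282 and 279 CPM in Dex + LPS (log2 -0.93, SE 0.0412, adjusted p = 1.02e-14). Pkm, the last enzyme before pyruvate, had 2278, 2370 and 2297 CPM in LPS and 1660, 1351 and 1429 CPM in Dex + LPS (log2 -0.65, SE 0.055, adjusted p = 8.95e-10). Hif1a had 112, 132 and 132.5 CPM in Dex + LPS, under all 3 LPS libraries (log2 -0.34, SE 0.0573, adjusted p = 3.05e-05).

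Without both libraries that stood apart by length, 28 members were called in this comparison in place of 25, and 59.2% of all genes in place of 55.4%. Pfkfb3 was then 2.39, Aldoc -2.20, Pfkp -1.001, Hk3 -0.91, Pkm -0.73, Pfkl 0.71, Bnip3 0.90 and Hif1a -0.25 on the log2 scale, so each kept its direction. Ldha, lower by 0.16 (adjusted p = 0.0322), was the called gene most open to single libraries: its call was lost without replicate 2 of LPS (-0.15) and without replicate 2 (-0.10) or replicate 3 (-0.12) of Dex + LPS, and without both apart libraries it was -0.25. Gpi1 went from 0.27 to 0.18 and Slc16a3 from 0.19 to 0.12 without replicate 1 of Dex + LPS, and likewise without both apart libraries, with their calls kept. Calls of all genes were 50.3% higher on the TMM scale and 59.7% by library totals, by which 11 members were called higher and 12 lower. Neutrophil markers summed to 11.4 to 14 CPM in Dex + LPS, under the 17 to 24.1 CPM of LPS, with 3 of 5 called lower. Macrophage markers summed to 26900 to 27300 CPM against 16100 to 16800 CPM, with 5 of 8 called higher and 2 lower. The part of either in the results on Dex was not tested.

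iBRD9 lowered more of these genes than it raised. In iBRD9 + LPS against LPS, 8 of the 34 members were called higher and 19 lower, while all genes split evenly, 31.4% higher and 30.5% lower. The median log2 fold change was -0.224 over the members and 0.0104 over all genes. Lower were the glucose transporters Slc2a1 and Slc2a3, the lactate exporter Slc16a3, Hk2, Pfkp, Pfkfb3, Pfkfb4, Ldha, Pdk1, Vegfa and most enzymes from Gpi1 to Eno1. Of these, Slc2a3 was among the least abundant members in LPS. P4ha2, Aldoc, Ndrg1, Hk3, Bnip3, Pfkl, Egln1 and Hk1 were higher. Hif1a itself, at 149, 146 and 156 CPM, was not called (log2 -0.07, 95% interval -0.19 to 0.0459).

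P4ha2, a catalytic subunit of collagen prolyl hydroxylase, had 2.46, 2.38 and 2.48 CPM in LPS and 17.4, 13.9 and 17.5 CPM in iBRD9 + LPS, a 6.67-fold rise (log2 2.74, SE 0.12, adjusted p = 7.69e-15). Aldoc had 58.1, 59.8 and 60.3 CPM with iBRD9 against at most 26.7 CPM in LPS (log2 1.18, SE 0.105, adjusted p = 1.62e-09). Ndrg1, a stress-induced gene known as a HIF target, had 39.5, 36.4 and 37.9 CPM in LPS and 71.8, 78.0 and 81.6 CPM with iBRD9 (log2 1.02, SE 0.0692, adjusted p = 1.45e-11). For none of these 3 genes did the groups overlap, nor did they for 71.9% of all genes. Hk3 had 922, 949.7 and 929 CPM with iBRD9 (log2 0.82, SE 0.0409, adjusted p = 6.69e-14), over the 519 to 540 CPM of LPS and also over the 550 to 581 CPM of vehicle.

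Pfkfb3 fell to 26.8, 29.2 and 25.3 CPM, close to its vehicle level of 22.6 to 24.7 CPM (log2 -1.43 against LPS, SE 0.0997, adjusted p = 2.66e-11). Hk2 had 67.2, 63.4 and 65.8 CPM in LPS and 39.6, 40.4 and 39.6 CPM with iBRD9 (log2 -0.72, SE 0.0616, adjusted p = 9.09e-10), under the vehicle range of 41.1 to 43.9 CPM as well. Slc2a1 had 169 CPM in all 3 iBRD9 + LPS libraries (168.9, 168.6 and 168.7), under LPS and over vehicle (log2 -0.64, SE 0.0523, adjusted p = 4.26e-10). In these 3 genes that LPS had raised, all iBRD9 libraries lay below all LPS libraries. Pfkfb4, which LPS had lowered, had 13.8, 13.4 and 16.0 CPM, lower again than in LPS (log2 -0.70, SE 0.0873, adjusted p = 3.7e-07). Ldha had 590, 613 and 587 CPM in LPS and 393, 418 and 395 CPM with iBRD9 (log2 -0.57, SE 0.0607, adjusted p = 3e-08).

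The summed level of 8 neutrophil markers moved with iBRD9: 17 to 24.1 CPM in LPS and 0.984 to 2.37 CPM in iBRD9 + LPS, with 5 of 5 tested markers called lower. Dendritic cell markers summed to 6.87 to 7.8 CPM in LPS and 1.22 to 1.53 CPM in iBRD9 + LPS. Of 3 tested, 2 were called lower and 1, at 1.57 on the log2 scale, was not called. Macrophage markers summed to 16100 to 16800 CPM in LPS and 14900 to 15000 CPM in iBRD9 + LPS, with 5 of 8 called lower and 2 higher. In Dex + iBRD9 + LPS the neutrophil markers summed to 4.96 to 6.85 CPM, against 11.4 to 14 CPM in Dex + LPS. There 5 of 8 macrophage markers were called lower and 0 higher. The part of all these markers in the results on iBRD9 was not tested, and in bulk RNA fewer cells of a type and less RNA per cell cannot be told apart. With library totals alone all genes shifted up by a median of 0.133 and called genes went from 50.7% to 63.1% higher, while the members were 9 higher and 15 lower. The call of Gapdh (log2 -0.20) was lost without replicate 2 of LPS or replicate 1 of iBRD9 + LPS (adjusted p up to 0.0526), and that of Pfkm (-0.25) without any of replicates 2 and 3 of LPS and replicates 1 and 2 of iBRD9 + LPS.

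**Figure D2:**
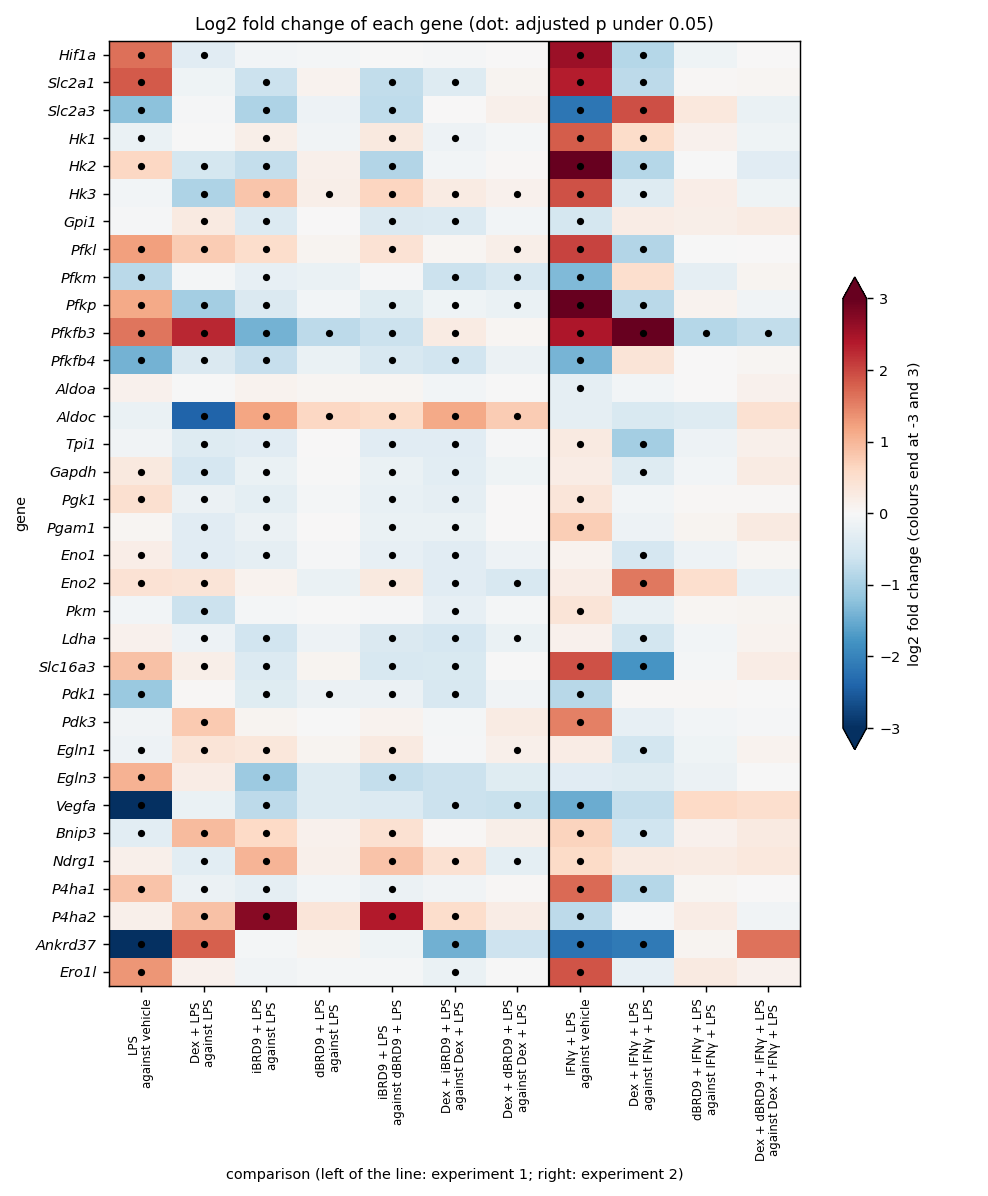
Log2 fold change of each of the 34 genes (rows, in pathway order) in the comparisons between groups of both experiments (columns), in colour from -3 to 3; a black dot marks an adjusted p under 0.05. The iBRD9 columns hold many dots (27 genes without Dex and 24 with Dex), the column of dBRD9 without Dex in experiment 1 holds 4, and the dBRD9 columns of experiment 2 hold 1 each.

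The degrader dBRD9 called few members. In dBRD9 + LPS against LPS, 2 of 34 were higher and 2 lower, against 6.64% and 9.97% of all genes, and 11 were under 0.05 before adjustment. The median log2 fold change was -0.0152 (all genes 0). Pfkfb3 fell to 48.5, 40.5 and 38.7 CPM, under the 64.5 CPM of the lowest LPS library (log2 -0.77, SE 0.0975, adjusted p = 3.63e-06). Aldoc rose to 37.5, 37.7 and 46.9 CPM (log2 0.63, SE 0.107, adjusted p = 0.000143). Hk3 had 577, 603 and 622 CPM, over every LPS library (log2 0.19, SE 0.0407, adjusted p = 0.002). Between these groups 37.9% of all genes showed no overlap. Pdk1 had 40.2, 41.7 and 42.5 CPM (log2 -0.19, SE 0.0596, adjusted p = 0.0335), and its call was lost when any of 5 of the 6 libraries was left out, the exception being replicate 1 of LPS (adjusted p up to 0.159). Slc2a1 had 274.9, 274.8 and 294 CPM and Hk2 69.1, 74.5 and 76.0 CPM, neither called. By library totals, calls of all genes moved from 40% to 57.4% higher, and members from 2 to 5 higher and from 2 to 1 lower. A fit of the 2 groups alone called 9 members, and one without both apart libraries 8. These fits called 28.3% and 27% of all genes, in place of 16.6%.

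Set side by side, with doses that differ (250 nM dBRD9 against 3 or 10 µM iBRD9), 9 members were called higher and 17 lower with iBRD9 than with dBRD9, against 28.3% and 27.2% of all genes, at a median of -0.175 (all genes 0.0111). P4ha2 was 2.38 higher on the log2 scale (95% interval 2.14 to 2.62, adjusted p = 8.97e-14), since dBRD9 + LPS had only 3.07, 2.92 and 3.38 CPM. Ndrg1 was higher by 0.87 (0.722 to 1.01), at 43.1, 44.0 and 39.9 CPM with dBRD9. Aldoc (0.55, 0.334 to 0.758) and Hk3 (0.64, 0.551 to 0.72) were also higher with iBRD9, beyond the rise with dBRD9. Hk2 was 0.88 lower with iBRD9 (-1 to -0.749, adjusted p = 4.64e-11) and Slc2a1 0.74 lower (-0.845 to -0.628, adjusted p = 5.7e-11). Pfkfb3 fell further by 0.65 (-0.862 to -0.441, adjusted p = 9.75e-06). Slc16a3 had 84.8, 88.2 and 84.3 CPM with iBRD9 and 119.2, 119.0 and 123 CPM with dBRD9 (log2 -0.49, SE 0.0588, adjusted p = 2.63e-07). By library totals 10 members were called higher and 12 lower, and calls of all genes went from 51% to 60.1% higher. Neutrophil markers summed to 0.984 to 2.37 CPM with iBRD9 and 19.3 to 21.8 CPM with dBRD9 (5 of 5 tested called lower), and dendritic cell markers to 1.22 to 1.53 and 6.43 to 8.85 CPM (2 of 3 lower), whose part here was not tested. Some calls depended on single libraries. That of Egln3 (-0.72) was lost without replicate 2 or 3 of iBRD9 + LPS or replicate 1 or 3 of dBRD9 + LPS, with values from -1.15 to -0.43 over the libraries left out. That of Eno2 (0.30) was lost without replicate 1 of iBRD9 + LPS or replicate 2 or 3 of dBRD9 + LPS (0.17 to 0.45). That of Gapdh was lost without replicate 1 or 3 of either group (-0.23 to -0.18), and that of Pdk1 without replicate 3 of iBRD9 + LPS (adjusted p = 0.0522). The interval of Hif1a was -0.138 to 0.0977.

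Added to Dex, iBRD9 again lowered more members than it raised. In Dex + iBRD9 + LPS against Dex + LPS, 5 were called higher and 19 lower, against 16.7% and 18% of all genes, at a median of -0.207 (all genes 0.00808). Aldoc rose from 3.73 to 6.31 CPM in Dex + LPS to 11.5, 9.57 and 11.6 CPM (log2 1.13, SE 0.148, adjusted p = 2.98e-06). Ndrg1 had 30.7, 31.3 and 29.9 CPM in Dex + LPS and 39.2, 38.6 and 47.8 CPM with both (log2 0.45, SE 0.0723, adjusted p = 3.89e-05). Hk3 had 336, 331 and 320.1 CPM with both (log2 0.24, SE 0.0411, adjusted p = 7.24e-05). All 3 stayed under their level in iBRD9 + LPS.

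On the falling side, Ldha had 602, 493 and 509.7 CPM in Dex + LPS and 402, 379 and 349.7 CPM with both (log2 -0.51, SE 0.0608, adjusted p = 9.22e-07). Slc16a3 had 141, 123.7 and 123.7 CPM in Dex + LPS and 103, 89.3 and 89.6 CPM with both (log2 -0.46, SE 0.0589, adjusted p = 2.09e-06). The lactate-forming enzyme and the lactate exporter thus fell together, as they did with iBRD9 alone. Pdk1 had 45.8, 48.9 and 51.0 CPM in Dex + LPS and 36.6, 35.8 and 32.7 CPM with both (log2 -0.47, SE 0.0605, adjusted p = 2.47e-06). Pfkfb4 had 16.4, 17.2 and 18.5 CPM and 11.9, 10.6 and 12.3 CPM (log2 -0.58, SE 0.0943, adjusted p = 4.49e-05).

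Pfkfb3, which iBRD9 alone had lowered, had with both compounds 415, 419.5 and 412 CPM, at or over its Dex + LPS level (log2 0.24, SE 0.09, adjusted p = 0.0398). That call was lost without replicate 1 of Dex + LPS (log2 0.13) and without any 1 of the Dex + iBRD9 + LPS libraries (0.24, 0.24 and 0.25), and without both apart libraries (0.13, adjusted p = 0.0911). That of Ero1l (-0.21) was lost without replicate 2 or 3 of Dex + LPS or replicate 1 or 3 of Dex + iBRD9 + LPS (-0.33 to -0.13). Hk1 (-0.16) was no longer called without replicate 3 of Dex + LPS or replicate 1 of Dex + iBRD9 + LPS (adjusted p up to 0.0936). Pfkp (-0.13) was no longer called without replicate 3 of Dex + LPS or replicate 2 or 3 of Dex + iBRD9 + LPS (up to 0.0924), and Vegfa (-0.64) without replicate 2 of Dex + LPS or replicate 3 of Dex + iBRD9 + LPS (up to 0.0783). By library totals, calls of all genes went from 48.1% to 65.1% higher, with 5 members higher and 14 lower. A fit of the 2 groups alone called 16 members in place of 24, 4 higher and 12 lower. It called 19.9% of all genes in place of 34.7%.

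With dBRD9 added to Dex, 4 members were called higher and 6 lower, against 6.51% and 9.28% of all genes, at a median of -0.0122 (all genes 0.00948). Eno2, the neuronal enolase, had 29.7, 27.5 and 26.3 CPM in Dex + LPS and 22.7, 19.3 and 17.7 CPM with both (log2 -0.48, SE 0.104, adjusted p = 0.00226). Ndrg1 had 24.5, 25.8 and 24.8 CPM, under all Dex + LPS libraries (log2 -0.29, SE 0.0739, adjusted p = 0.00824), whereas iBRD9 had raised it there. The groups did not overlap for 24.4% of all genes. Pfkp had 129, 133 and 136 CPM (log2 -0.19, SE 0.0453, adjusted p = 0.00453), and Ldha 475, 463 and 455 CPM (log2 -0.21, SE 0.0605, adjusted p = 0.0225). Pfkl had 145.5, 143 and 145.7 CPM (log2 0.18, adjusted p = 0.0219), Egln1 54.3, 53.4 and 55.2 CPM (0.16, adjusted p = 0.0352) and Hk3 297, 305 and 307 CPM (0.12, adjusted p = 0.0421). Aldoc, under 10 CPM in both groups, was higher by 0.77 (SE 0.15, adjusted p = 0.00082). Pfkfb3, at 354, 380.2 and 365 CPM, was not called (0.06, 95% interval -0.126 to 0.248).

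A fit of the 2 groups alone called 1 member in place of 10, and 4.98% of all genes in place of 15.8%. Leaving out single libraries gave 5 to 11 members. The call of Egln1 was lost without any 1 of 5 libraries, the exception being replicate 1 of Dex + LPS (0.14 to 0.17). That of Hk3 was lost without replicate 1 or 3 of Dex + LPS or replicate 2 or 3 of Dex + dBRD9 + LPS (0.11 to 0.14), and that of Ldha without replicate 1 of Dex + LPS or replicate 2 or 3 of Dex + dBRD9 + LPS (-0.26 to -0.11). Pfkl was no longer called without replicate 2 or 3 of Dex + LPS or replicate 1 or 3 of Dex + dBRD9 + LPS (0.14 to 0.25), and Vegfa (-0.67) without replicate 2 of Dex + LPS or replicate 3 of Dex + dBRD9 + LPS (-0.85 to -0.49). Without both apart libraries 13 were called (and 17.2% of all genes), Ldha was -0.13 (adjusted p = 0.0584) and Aldoa turned to 0.12. By library totals, 41.2% of the calls of all genes became 65.5% higher, and members 6 higher and 5 lower.

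Whether a compound's effect was the same with and without Dex was tested as an interaction, that is, the log2 fold change of the compound in the presence of Dex less the one in its absence. For iBRD9, 5 members had a positive and 10 a negative interaction, against 17.3% and 16.0% of all genes. Pfkfb3 had the largest positive value, 1.67 (SE 0.134, adjusted p = 1.82e-09): the fall of 1.43 without Dex was 0.24 in the other direction with it. The fall of Hk2 was smaller with Dex, -0.09 and not called (95% interval -0.218 to 0.0434) against -0.72 without it (interaction 0.63, SE 0.088, adjusted p = 6.77e-06), at 41.9, 48.5 and 46.3 CPM in Dex + LPS and 42.6, 41.2 and 44.6 CPM with both compounds. Without both apart libraries that fall with Dex was -0.15 and was called. Pfkp (0.31, SE 0.0635, adjusted p = 0.000542) and Slc2a1 (0.25, SE 0.0739, adjusted p = 0.0113) fell less with Dex than without. Slc2a1 had 261, 223 and 239 CPM in Dex + LPS and 191, 184 and 179 CPM with both, and Pfkp 141, 138 and 136 CPM with both.

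The largest negative interaction was that of P4ha2, which rose by 2.74 without Dex and by 0.52 with it, an interaction of -2.22 (SE 0.175, adjusted p = 1.35e-09), at 4.42, 4.73 and 4.25 CPM in Dex + LPS and 6.91, 6.59 and 5.67 CPM with both. Hk3 (-0.58, SE 0.0578, adjusted p = 4.99e-08), Ndrg1 (-0.57, SE 0.0998, adjusted p = 0.000102) and Bnip3 (-0.55, SE 0.107, adjusted p = 0.000352) followed. Bnip3 had 27.1, 27.6 and 26.3 CPM in iBRD9 + LPS and 38.6, 33.5 and 35.5 CPM with both, against 32.3 to 37.3 CPM in Dex + LPS. Aldoc was raised in both settings, and its interaction on the log2 scale was not called (-0.05, 95% interval -0.434 to 0.335). Without both apart libraries that interaction was -0.24, also not called. Of the 12 libraries in this test, leaving out any 1 of 8 ended the call of Ankrd37 (-1.39; -1.69 to -1.14), any 1 of 7 that of Pfkm (-0.41; -0.51 to -0.29) and any 1 of 3 that of Eno2 (-0.45; -0.51 to -0.39). For dBRD9, 1 member had a positive and 1 a negative interaction (1.82% and 1.57% of all genes): Pfkfb3 at 0.83 (SE 0.133, adjusted p = 0.00085) and Ndrg1 at -0.45 (SE 0.102, adjusted p = 0.0142). Without both apart libraries these were 0.75 and -0.44, and Pfkfb3 with iBRD9 was 1.56.

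**Figure D3:**
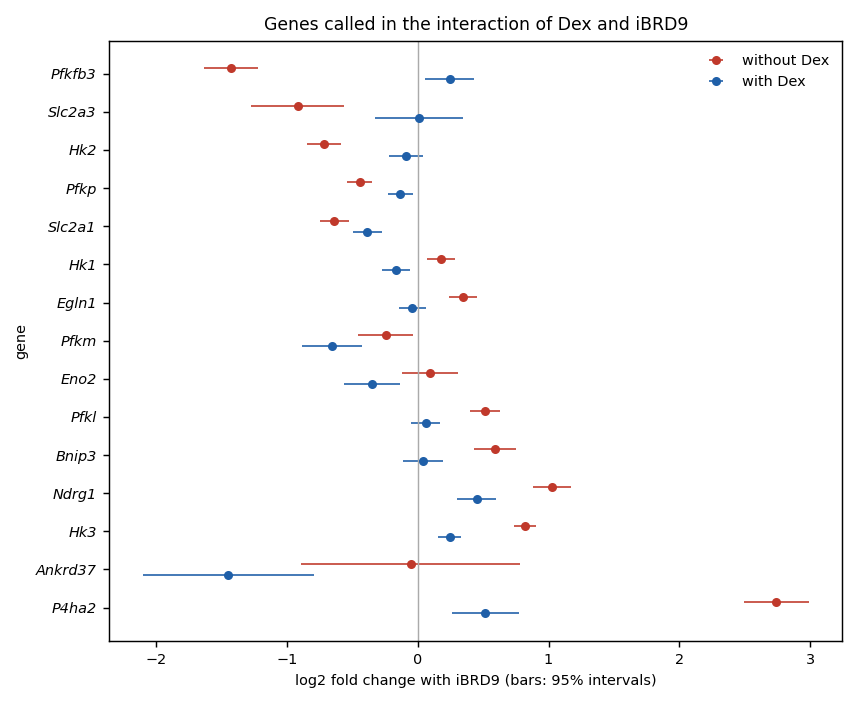
Log2 fold change with iBRD9 in experiment 1 (horizontal axis) for the 15 members called in the interaction (1 per line, from the most positive interaction at the top to the most negative), without Dex in red and with Dex in blue; bars are 95% intervals. Pfkfb3 lies at -1.43 without Dex and 0.24 with it, and P4ha2 at 2.74 and 0.52.

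IFNγ + LPS in experiment 2 called 18 members higher and 9 lower than vehicle, against 32.8% and 35.6% of all genes, at a median of 0.317 (all genes -0.11). Hexokinase 2 headed the rises with a 29.5-fold change, followed by Pfkp, Hif1a and Pfkfb3, and the transporters Slc2a1 (log2 2.35) and Slc16a3 (1.92) rose with them. Vegfa, Pfkfb4, Pfkm and Pdk1 fell, as they had with LPS alone.

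Hk2 had 12.3 and 15.6 CPM in vehicle and 383 and 442 CPM in IFNγ + LPS (log2 4.88, SE 0.144, adjusted p = 4.67e-14). Pfkp had 77.0 and 72.3 CPM in vehicle and 726 and 758 CPM in IFNγ + LPS (log2 3.31, SE 0.109, adjusted p = 1.77e-13). Hif1a had 45.4 and 51.2 CPM in vehicle and 288 CPM in both stimulated libraries (287.8 and 288.3), a 5.96-fold rise (log2 2.58, SE 0.116, adjusted p = 9.09e-12). The 2 groups were well apart for each of these, and they did not overlap for 83.8% of all genes. Pfkfb3 had 12.4 and 17.7 CPM in vehicle and 78.5 and 83.0 CPM in IFNγ + LPS (log2 2.42, SE 0.151, adjusted p = 6.65e-10).

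Vegfa had 9.88 and 13.8 CPM in vehicle and 3.95 and 4.58 CPM in IFNγ + LPS (log2 -1.48, SE 0.235, adjusted p = 3.99e-05). Pfkfb4 had 25.6 and 30.2 CPM against 11 and 10.1 CPM (log2 -1.41, SE 0.158, adjusted p = 9.42e-07). Pfkm had 11.3 and 9.64 CPM against 3.71 and 4.65 CPM (log2 -1.33, SE 0.2, adjusted p = 2.3e-05), and Pdk1 35.1 and 40.8 CPM against 21.4 and 21.5 CPM (log2 -0.82, SE 0.125, adjusted p = 2.55e-05). So 1 isozyme of phosphofructokinase fell while Pfkp and Pfkl (log2 2.02) rose.

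The experiments share no library. Of the members called with LPS (23) and with IFNγ + LPS (27), 18 were called in both, 78.3% and 66.7% of each list. Among all genes tested in both experiments these shares were 76.3% and 83.2%. Of the 18 members, 10 were higher in both, 6 lower in both and 2 in opposite directions (Hk1 and Bnip3). Opposite calls made up 11.1% of the shared calls among the members and 8.55% among all genes. By library totals the all-gene median shifted by -0.648, calls went from 47.9% to 25.2% higher, and members to 12 higher and 19 lower. On that scale Tpi1 (-0.37), Pgk1 (-0.29), Pkm (-0.25) and Ndrg1 (-0.08), called higher under TMM, had the opposite sign. B cell markers summed to 31 to 32 CPM in vehicle and 9.05 to 13.4 CPM in IFNγ + LPS (1 of 2 tested called lower), and dendritic cell markers to 0.857 to 1.03 and 6.35 to 7.11 CPM (2 of 2 higher); their part was not tested. The call of Pgk1 (0.36) was lost without replicate 2 of vehicle (adjusted p = 0.0541). Those of Aldoa (-0.27) and Tpi1 (0.28) were lost without either IFNγ + LPS library and without replicate 1 and replicate 2 of vehicle respectively, with values of -0.40 to -0.13 and 0.11 to 0.47.

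**Figure D4:**
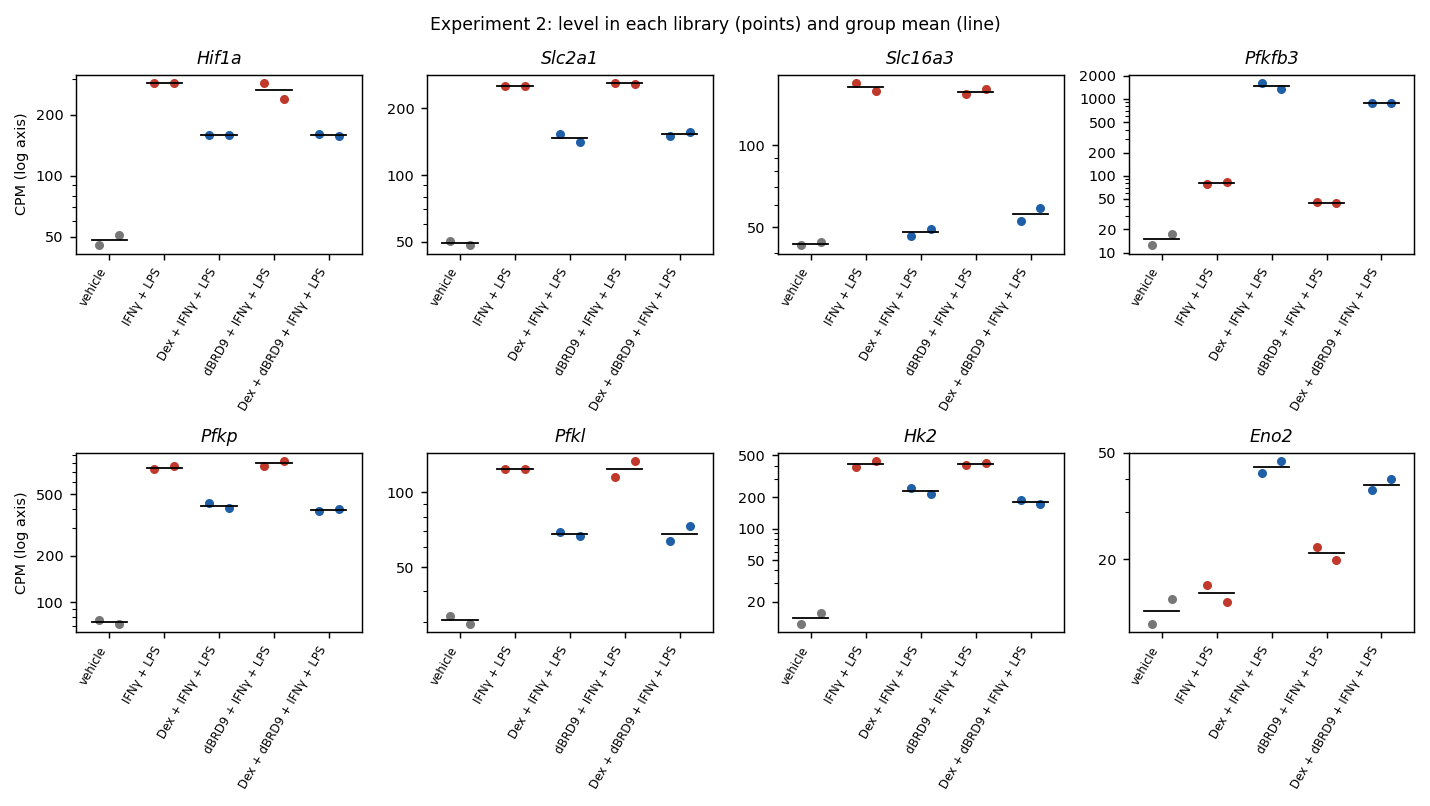
Level of 8 of the genes in each of the 10 libraries of experiment 2, in CPM on a log axis; points are libraries, black bars are group means, grey is vehicle, red is without Dex and blue is with Dex. Pfkfb3 reaches 889 to 1628 CPM in the libraries with Dex, and Slc16a3 lies near its vehicle level there.

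Dex under IFNγ + LPS raised Pfkfb3 18.4-fold and lowered most called members. Of the 34, 4 were called higher and 15 lower, against 10.7% and 9.21% of all genes, at a median of -0.384 (all genes 0.0279). Pfkfb3 had 78.5 and 83.0 CPM in IFNγ + LPS and 1628 and 1337 CPM with Dex (log2 4.20, SE 0.154, adjusted p = 2.71e-11), which made it the most strongly raised of the 34. Eno2 had 15.9 and 13.8 CPM and then 42.0 and 46.6 CPM (log2 1.57, SE 0.144, adjusted p = 8.51e-07). Hk1, the housekeeping hexokinase, had 244 and 262 CPM and then 399 and 341 CPM (log2 0.55, SE 0.105, adjusted p = 0.00134). The fourth, Slc2a3, stayed under 10 CPM in every library of experiment 2.

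Slc16a3 had 169.5 and 158.5 CPM in IFNγ + LPS and 46.3 and 49.4 CPM with Dex, near its vehicle level of 42.8 and 43.9 CPM (log2 -1.78, SE 0.109, adjusted p = 9.06e-09). Tpi1, which interconverts the 2 triose phosphates, had 359 and 329 CPM and then 164 and 177 CPM (log2 -1.01, SE 0.12, adjusted p = 1.42e-05). Pfkl had 124.5 and 124.6 CPM and then 69.3 and 66.6 CPM (log2 -0.87, SE 0.115, adjusted p = 4.01e-05). In each of these 3 genes both Dex libraries were lower than both others. Of all genes, 60% showed no overlap between these 2 groups. Hk2 fell to 242 and 212.5 CPM (log2 -0.86, SE 0.12, adjusted p = 6.96e-05), still far over vehicle, and Hif1a to 159.3 and 159.5 CPM (log2 -0.85, SE 0.109, adjusted p = 3.03e-05). The call of Ankrd37 (-2.11) was lost without any 1 of the 4 libraries. Those of Gapdh (-0.39) and Hk3 (-0.39) were lost without 3 of the 4, the exceptions being replicate 2 and replicate 1 of Dex + IFNγ + LPS. Bnip3 (-0.59) was no longer called without replicate 2 of IFNγ + LPS or replicate 1 of Dex + IFNγ + LPS, Egln1 (-0.55) without replicate 2 of IFNγ + LPS and Eno1 (-0.49) without replicate 1 of IFNγ + LPS, with adjusted p up to 0.0754. By library totals the calls of all genes went from 53.8% to 64.3% higher, and 5 members were higher and 14 lower. Neutrophil markers summed to 35.8 to 38 CPM in IFNγ + LPS and 12.5 to 18.1 CPM with Dex (4 of 7 tested called lower), and stromal markers to 59.8 to 66.4 and 38.1 to 45.7 CPM (2 of 4 lower). What part they had in the results was not tested.

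Dex was tested in both experiments on separate libraries. Of 25 members called in experiment 1 and 19 in experiment 2, 16 were called in both (64% and 84.2%). Among all genes tested in both experiments these shares were 29.1% and 77.3%. Of the 16 members, Pfkfb3 and Eno2 were higher in both, 9 were lower in both and 5 went in opposite directions. These were Pfkl (log2 0.77 with LPS, -0.87 with IFNγ + LPS), Slc16a3 (0.19 and -1.78), Egln1 (0.39 and -0.55), Bnip3 (0.96 and -0.59) and Ankrd37 (1.79 and -2.11). The opposite share was 31.2% among the members and 15.1% among all genes called in both, and the differences between experiments were not tested. The experiments differ in stimulus, sequencing and number of libraries, which cannot be told apart.

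**Figure D5:**
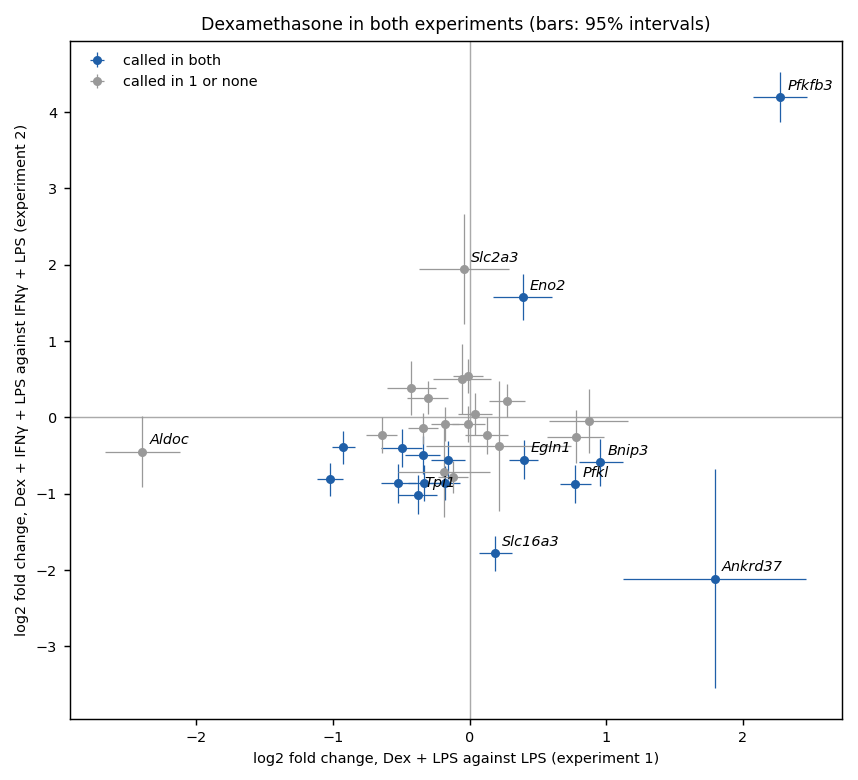
Log2 fold change with Dex under LPS (experiment 1, horizontal axis) and under IFNγ + LPS (experiment 2, vertical axis) for the 34 genes, with 95% intervals as bars; blue points were called in both experiments and grey points in 1 or none. Pfkfb3 is at 2.27 and 4.20, high on both axes, and Pfkl, Slc16a3, Egln1, Bnip3 and Ankrd37 are positive on the first axis and negative on the second.

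The degrader under IFNγ + LPS called 0 members higher and 1 lower, against 0.819% and 1.01% of all genes, with 5 members under 0.05 before adjustment. The 1 gene was again Pfkfb3, at 78.5 and 83.0 CPM without and 45.9 and 43.7 CPM with dBRD9 (log2 -0.85, SE 0.143, adjusted p = 0.00488). It was the only member called with dBRD9 in both experiments. Its call in experiment 2 was lost without replicate 2 of IFNγ + LPS (log2 -0.81) and without either dBRD9 + IFNγ + LPS library (-0.89 and -0.81), with adjusted p up to 0.0881. By library totals, calls of all genes went from 44.9% to 34.3% higher. With Dex present, dBRD9 lowered Pfkfb3 from 1628 and 1337 CPM to 889 and 891 CPM (log2 -0.74, SE 0.135, adjusted p = 0.011), the 1 member called of 34, against 0.233% of all genes higher and 1.16% lower. That call was lost without replicate 1 of Dex + IFNγ + LPS (-0.60) and without either library with both compounds (-0.73 and -0.74, adjusted p up to 0.189). In experiment 1 the same contrast gave 0.06. The interaction of Dex and dBRD9 in experiment 2 was called for 0 members by edgeR and 0 by DESeq2 (0% of all genes higher and 0.00751% lower), with 3 of the 34 at an unadjusted p under 0.05. For Pfkfb3 it was 0.11 (95% interval -0.302 to 0.529).

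The wider HIF pathway was read, on the TMM scale only, from a list of 16 genes that regulate HIF activity. LPS called 12 of the 16 higher and 0 lower, against 36.1% and 39.3% of all genes, and IFNγ + LPS 10 of 15 higher and 0 lower, against 32.8% and 35.6%. The list medians were 0.408 and 0.556, smaller in size than the all-gene shifts of -0.514 and -0.648 with library totals. These one-sided counts may therefore depend on the scaling, and they were not taken by library totals. The largest rise with LPS was that of Cited2, an inhibitor that competes with HIF for its coactivators, from a mean of 84.2 to 703 CPM (log2 3.06, SE 0.058, adjusted p = 2.25e-22). Cited2 was lower with iBRD9 (-0.65) and with dBRD9 (-0.58). Dex called 7 higher and 4 lower (27.9% and 27.5% of all genes). Of those over 10 CPM the most changed were Egln2, the remaining HIF prolyl hydroxylase (0.99), Hsp90aa1, a chaperone that binds HIF1 alpha (-0.74), and the ubiquitin ligase subunit Vhl (0.55). The called genes under 10 CPM were Arnt2 (-1.21), Epas1 (1.27) and Hif3a, which had 0 counts in every LPS library and 5.38 to 6.63 CPM in Dex + LPS. iBRD9 called 7 higher and 4 lower (31.4% and 30.5% of all genes), with Vhl (0.67), the asparaginyl hydroxylase Hif1an (0.65) and Cited2 (-0.65) the most changed over 10 CPM. Under it, Epas1 was higher by 1.55 and Arnt2 was at -1.56.

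In the lists that follow, counts are called higher and then lower, and stand against shares of all genes of 36.1% and 39.3% with LPS, 27.9% and 27.5% with Dex, 31.4% and 30.5% with iBRD9 and 6.64% and 9.97% with dBRD9. Among 40 further HIF targets, of which 32 were tested in experiment 1, LPS called 11 and 15. Edn1, the precursor of the vasoconstrictor endothelin 1, went from a mean of 0.141 CPM in vehicle to 235 CPM in LPS, and fell with iBRD9 to 24.1 CPM (log2 -3.29, SE 0.137, adjusted p = 3.07e-15) and with dBRD9 to 115 CPM (-1.04). Lox, which crosslinks collagen, was likewise lower with iBRD9, at -2.86 on the log2 scale. iBRD9 called 10 and 15 of the 32, dBRD9 3 and 7, and Dex 14 and 10, with Bhlhe40 at -3.06. Among the 26 other isozymes and regulators of glycolysis, of which 18 were tested, LPS called 4 higher and 8 lower. Dex called 3 and 3 of these, iBRD9 7 and 3, and dBRD9 0 and 1. With iBRD9 their median log2 fold change was 0.178, whereas that of the members was -0.224. Slc2a6, a glucose transporter family member of the lysosome, rose with LPS from a mean of 52.2 to 858 CPM (log2 4.04, SE 0.0518, adjusted p = 1.64e-25), and with IFNγ + LPS by 5.09. In the pentose phosphate pathway, which branches from glycolysis after hexokinase, LPS called 2 of 8 higher and 1 lower, Dex 1 and 4, iBRD9 1 and 4, and dBRD9 1 and 0. H6pd, the first enzyme of that route inside the endoplasmic reticulum, fell with LPS (-1.10) and rose with Dex (1.26). For 28 tested genes of pyruvate entry and the TCA cycle, which takes up the pyruvate, LPS called 11 higher and 6 lower, Dex 5 and 9, iBRD9 10 and 8, and dBRD9 0 and 2. Pdk2, another pyruvate dehydrogenase kinase, was lower with LPS by 2.80, as Pdk1 was.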

How the data were processed

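Bulk RNA-seq counts of 31 macrophage libraries were used, 21 in experiment 1 and 10 in experiment 2. The authors deposited raw counts, a column for each library and a row for each Ensembl gene. The submitters' processing notes name the build mm10 and the tools fastp, STAR and DESeq2 without roles or versions. The sources used here give no counting step, annotation release or strand setting. Symbols, positions and exon lengths came from GENCODE M21.

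Each experiment was fitted alone in edgeR 4.0.16 (R 4.3.3) with a coefficient for each group. The filter was filterByExpr (minimum count 10, minimum total 15). Genes were scaled by TMM and tested by quasi-likelihood F tests with Benjamini-Hochberg adjustment over all genes tested, at 0.05. Every adjusted p is from edgeR. The SE is the size of the log2 fold change divided by the square root of F. The fit was also run on simulated counts with planted changes. These counts held no deviation by exon length and no shared deviation of same-numbered libraries, so that run cannot speak to either. Libraries of a group differed by more than counting error (chi-square per degree of freedom 2.13 to 44.8 in experiment 1 and 3.18 to 30.9 in experiment 2), so none was counted as a duplicate.

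The members, lists and tests were chosen with earlier results of these data known. Values in every library are given, per comparison, for up to 4 called members at either end of the log2 fold change whose higher group had a mean of at least 10 CPM, and for Hif1a. Of each other list, up to 3 called genes with the largest change may be named. Alternatives were DESeq2 1.42.0, library totals alone, no filter, a replicate block, a fit of only the groups compared, and leaving out libraries. The labels do not say that equal replicate numbers share a source. In experiment 1, same-numbered libraries deviated together in every pair (r over 0.1) for Dex + iBRD9 + LPS with Dex + LPS (0.112 to 0.248) and Dex + dBRD9 + LPS with Dex + LPS (0.435 to 0.741). With the block these comparisons called 24 and 10 members, as without it. In experiment 2 they did so for IFNγ + LPS with vehicle (0.267) and dBRD9 + IFNγ + LPS with IFNγ + LPS (0.109). There the block called 25 members in place of 27, and 1 as without it. The block was an effect of the replicate number shared by all groups of an experiment. It cannot fully take up a pairing that only some groups show, so no conclusion on pairing is drawn from these counts.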

Additional observations from a re-analysis of the deposited data

Results flagged for a closer look

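These values stand out because an effect differed between 2 settings of the same contrast. The effect of iBRD9 with Dex minus that without Dex passed the test for 15 of the 34 members, in log2 units, and for 33.2% of all genes. It was positive for Pfkfb3 (1.67), Slc2a3 (0.93, among the least abundant members in LPS), Hk2 (0.63), Pfkp (0.31) and Slc2a1 (0.25). It was negative for P4ha2 (-2.22), Ankrd37 (-1.39), Hk3 (-0.58), Ndrg1 (-0.57), Bnip3 (-0.55), Pfkl (-0.46), Eno2 (-0.45), Pfkm (-0.41), Egln1 (-0.39) and Hk1 (-0.34). The calls of Ankrd37, Pfkm and Eno2 depended on single libraries, as given above. For dBRD9 the same difference passed for Pfkfb3 (0.83) and Ndrg1 (-0.45), and for 3.39% of all genes.

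The effect of Dex was called in opposite directions under LPS and under IFNγ + LPS for Pfkl (0.77 and -0.87), Slc16a3 (0.19 and -1.78), Egln1 (0.39 and -0.55), Bnip3 (0.96 and -0.59) and Ankrd37 (1.79 and -2.11), and the difference between the experiments was not tested. Ankrd37 was under 10 CPM in every library of experiment 1 and shares exon bases with Ufsp2.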

How the results depend on the processing

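Over the 34 members and the comparisons run, DESeq2 kept the direction and the call of 456 of 472 values, a fit without the filter on low counts 460 of 476, a replicate block 469 of 476, a fit of only the groups compared 431 of 471 and library totals alone 414 of 476. Leaving out 1 library kept 2933 of 3060. Counts of called members moved by over 1.5 times in these cases: dBRD9 + LPS against LPS from 4 to 9 in a fit of only the groups compared and to 8 without both libraries that stood apart by length, and Dex + dBRD9 + LPS against Dex + LPS from 10 to 1 in a fit of only the groups compared. The share of all genes called moved the same way, from 16.6% to 28.3% and 27%, and from 15.8% to 4.98%. Leaving out 1 library gave 5 to 11 for Dex + dBRD9 + LPS against Dex + LPS, and 0 to 1 for dBRD9 under IFNγ + LPS and for dBRD9 added to Dex there. In the other comparisons it gave 22 to 23 for LPS, 24 to 28 for Dex, 25 to 27 for iBRD9, 3 to 5 for dBRD9, 20 to 25 for iBRD9 added to Dex, 25 to 29 for IFNγ + LPS and 14 to 18 for Dex under IFNγ + LPS; where an arm kept 1 library, it was assumed to vary like the other groups. By library totals alone the sign turned with LPS for Aldoa (-0.39), Gapdh (-0.21), Pgk1 (-0.036), Pgam1 (-0.46), Eno1 (-0.32), Eno2 (-0.077), Ldha (-0.39), Ndrg1 (-0.37) and P4ha2 (-0.36). It turned with IFNγ + LPS for Tpi1 (-0.37), Gapdh (-0.43), Pgk1 (-0.29), Eno1 (-0.53), Eno2 (-0.44), Pkm (-0.25), Ldha (-0.51), Egln1 (-0.43) and Ndrg1 (-0.082). Aldoa turned to 0.12 in Dex + dBRD9 + LPS against Dex + LPS without both apart libraries. The cause was not tested. With the replicate block, counts were 24 for LPS, 26 for Dex, 27 for iBRD9, 4 for dBRD9, 25 for IFNγ + LPS and 18 for Dex in experiment 2; Aldoa with LPS, Slc2a1 with Dex and Vegfa between iBRD9 and dBRD9 gained a call, and Ankrd37 (interaction with iBRD9, and Dex in experiment 2), Aldoa and Tpi1 (IFNγ + LPS) lost one. For Dex under IFNγ + LPS, where same-numbered libraries deviated in opposite directions (r = -0.214), a block of crossed numbers, chosen after seeing the data, called 19. With 2 libraries a group, experiment 2 had 5 residual degrees of freedom, against 14 in experiment 1.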
